A study of Mus musculus with 9 samples.

Results

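A group of 10 non-classical major histocompatibility complex (MHC) class I genes of the mouse H2 region was followed in cell lines transformed with BCR/ABLp185, the fusion oncogene of Philadelphia chromosome-positive leukaemia. They were H2-Q1, H2-Q2, H2-Q4, H2-Q5, H2-Q6, H2-Q7, H2-T22, H2-T23, H2-T24 and H2-M3, which are 10 of the 50686 genes in the deposited count tables. They were chosen by symbol on chromosome 17, with their read counts in the 3 lines already known. Their differences between the lines are therefore given as a description, and no p-value is printed for them. Their calls below use an adjusted p but are not read as tests. The lines were made from bone marrow of the C57BL/6N strain and were wt, Stat5a-/- (labelled STAT5A-ko) or Stat5b-/- (labelled STAT5B-ko), and all of them carried BCR/ABLp185. There was 1 cell line of each genotype, with 3 technical replicates of each, so the spread between the 9 libraries does not cover differences between independent lines of a genotype. The description field at GEO calls the knockout samples wt, whereas their titles and genotype labels name the knockouts, and the titles and labels were followed here.

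The libraries held between 11948136 and 19016396 reads assigned to genes. Stat5a had 12.4 ± 1.02 normalized CPM (reads scaled to a common library total, mean ± SD, n = 3) in the Stat5a-/- line against 43.1 ± 6.35 in wt, and Stat5b had 63.4 ± 7.72 in the Stat5b-/- line against 106 ± 1.96 in wt. Each knocked-out gene was therefore lowest in its own line but still had reads there. All 10 B-lineage markers were detected, with a sum of between 4722 and 7278 normalized CPM in a library. By line this sum was 4896 ± 157 (wt), 6809 ± 407 (Stat5a-/-) and 6335 ± 474 (Stat5b-/-). Every knockout library lay above every wt library, while the ranges of the knockout lines overlapped. All 17 T-cell markers were detected as well, and their sum was higher in Stat5b-/- (2525 ± 448) than in Stat5a-/- (1704 ± 127) and wt libraries (1075 ± 165). Reads from T cells and reads of T-cell genes made by the transformed cells cannot be told apart in these bulk libraries, nor can fewer cells be told from less RNA per cell. Myeloid and natural killer (NK) cell markers were lower in sum. The myeloid sum was 5.32 ± 1.21 normalized CPM for wt, 5.64 ± 0.817 for Stat5a-/- and 10.3 ± 0.662 for Stat5b-/- cells, with every Stat5b-/- library above the other lines. The NK sum was 33.2 ± 7.25, 29.5 ± 3.43 and 49.7 ± 15.4, and its ranges overlapped. In Stat5b-/- against wt 2 of 2 tested myeloid markers (10 listed) were called higher, as were 3 of 4 tested NK markers (6 listed), while 1 NK marker was called lower. Among all genes tested 10.6% were called higher and 8.44% lower. Their part in the differences of the members was not tested.

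Classical class I molecules (H2-K and H2-D in mice) are highly polymorphic and present peptides from inside the cell to CD8 T cells. Non-classical molecules have the same fold and mostly pair with β2-microglobulin, but vary little between strains and have narrower tasks. H2-Q6 and H2-Q7 encode Qa-2, which can be held in the membrane by a glycolipid anchor. H2-T23 encodes Qa-1, which presents leader peptides of other class I molecules to the CD94/NKG2A receptor of NK cells. H2-T22 encodes a ligand of γδ T-cell receptors and needs no peptide, and H2-M3 presents N-formylated peptides such as those of bacteria. Class I promoters respond to interferons through interferon-stimulated response elements (ISRE), to NF-κB through a κB site, and to the NLRC5 complex through the SXY module, of which X2 is one box.

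The 10 genes lie on chromosome 17 of GRCm38 between 35320405 and 37274484. H2-Q1 (ENSMUSG00000079507.10), H2-Q2 (ENSMUSG00000091705.8), H2-Q4 (ENSMUSG00000035929.11), H2-Q5 (ENSMUSG00000055413.12), H2-Q6 (ENSMUSG00000073409.12) and H2-Q7 (ENSMUSG00000060550.15) follow each other on the plus strand from 35320405 to 35443773. H2-T24 (ENSMUSG00000053835.17), H2-T23 (ENSMUSG00000067212.8) and H2-T22 (ENSMUSG00000056116.18) lie together on the minus strand from 36005695 to 36042747. H2-M3 (ENSMUSG00000016206.6) stands apart on the plus strand, from 37270220 to 37274484. RefSeq promoter windows, from 250 bases before to 50 bases after the start, were matched by symbol for 7 of the 10 genes, which leaves H2-Q1, H2-Q5 and H2-T24 without one. The 250 bases before the start are given for 6 of them, 5′ to 3′ in RefSeq's GRCm38.p6, because these are the promoters that hold a searched motif. Capitals mark matches to 5 patterns searched on both strands in the 300-base windows. The patterns were GAAANNGAA (ISRE-like), GAANNGAAA (the ISRE-like order common in class I promoters, a pattern added after the promoters had been read), TTCNNNGAA (like the γ-activated sequence, GAS, which STAT dimers bind), GGGNNTTNC (κB-like) and TGACGC (X2-like).
H2-Q4 (chr17:35379367-35379616, plus strand): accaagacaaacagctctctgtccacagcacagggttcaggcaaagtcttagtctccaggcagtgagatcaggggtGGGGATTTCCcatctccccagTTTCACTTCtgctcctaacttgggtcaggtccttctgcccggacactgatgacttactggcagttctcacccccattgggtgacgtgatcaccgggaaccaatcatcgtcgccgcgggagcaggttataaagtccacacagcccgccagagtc
H2-Q6 (chr17:35424600-35424849, plus strand): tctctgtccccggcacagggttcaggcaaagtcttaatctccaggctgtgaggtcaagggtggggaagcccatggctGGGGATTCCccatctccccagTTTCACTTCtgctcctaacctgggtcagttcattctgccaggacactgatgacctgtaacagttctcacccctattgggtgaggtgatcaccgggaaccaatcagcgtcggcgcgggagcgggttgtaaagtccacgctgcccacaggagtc
H2-Q7 (chr17:35438905-35439154, plus strand): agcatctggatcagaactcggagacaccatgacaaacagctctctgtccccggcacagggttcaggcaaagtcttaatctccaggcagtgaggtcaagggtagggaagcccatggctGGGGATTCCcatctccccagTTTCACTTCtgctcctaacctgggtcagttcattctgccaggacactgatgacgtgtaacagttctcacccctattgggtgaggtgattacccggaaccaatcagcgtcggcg
H2-T22 (chr17:36042743-36042992, minus strand): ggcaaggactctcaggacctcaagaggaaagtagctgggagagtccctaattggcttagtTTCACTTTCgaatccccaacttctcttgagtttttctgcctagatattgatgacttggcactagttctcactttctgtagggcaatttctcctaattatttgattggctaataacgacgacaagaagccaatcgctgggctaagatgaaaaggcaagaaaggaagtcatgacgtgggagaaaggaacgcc
H2-T23 (chr17:36032702-36032951, minus strand): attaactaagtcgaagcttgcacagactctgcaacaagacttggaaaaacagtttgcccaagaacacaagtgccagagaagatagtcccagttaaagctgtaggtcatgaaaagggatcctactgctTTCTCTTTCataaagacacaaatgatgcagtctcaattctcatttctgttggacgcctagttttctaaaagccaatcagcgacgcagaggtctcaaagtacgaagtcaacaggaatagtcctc
H2-M3 (chr17:37269984-37270233, plus strand): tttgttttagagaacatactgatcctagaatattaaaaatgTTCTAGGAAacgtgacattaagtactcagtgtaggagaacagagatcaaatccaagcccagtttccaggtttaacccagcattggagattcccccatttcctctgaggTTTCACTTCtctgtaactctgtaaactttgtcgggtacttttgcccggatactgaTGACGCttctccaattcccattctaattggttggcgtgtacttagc

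GGGNNTTNC was found in H2-Q4, H2-Q6 and H2-Q7, and in 15.2% of the 32851 promoter windows of the RefSeq table. In H2-Q6 the match began at -173 and in H2-Q7 at -133 from the start, with the same letters, while H2-Q4 held overlapping matches at -174 and -173. GAANNGAAA followed it in the same 3 promoters, at -153, -152 and -113, and was also present in H2-M3 at -101, against 7.52% of all windows. GAAANNGAA was found in H2-T22 at -190 and H2-T23 at -123, against 8.56% of all windows. TTCNNNGAA was found in H2-M3 at -209 (8.30% of all windows), and TGACGC in H2-M3 at -46 and in H2-Q4 at 31 after the start, outside the printed stretch (7.40%). The H2-Q2 window held no match to any of the 5 patterns. Without gaps and after the best shift, the H2-Q6 and H2-Q7 windows were identical at 76.6% of 261 bases, and H2-Q4 was identical to H2-Q6 at 55.3% of 300 bases. A match is a run of letters and not a measured binding site, and binding was not measured in these libraries.

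How far reads can be assigned to one gene differed strongly among the members. Reads were 50 bp long, and by the counter's settings those that mapped to several places were not counted. Of all 50-base windows of the annotated GENCODE M21 transcripts, the share that no other gene's transcripts held was 99.4% for H2-M3 and 96.8% for H2-T24. It was 85.5% for H2-T23, 85.0% for H2-Q1, 83.9% for H2-Q2 and 73.5% for H2-Q7. It was lowest for H2-Q6 (65.0%), H2-Q4 and H2-Q5 (both 63.6%) and H2-T22 (46.5%), whereas the median over 13819 tested genes was 98.9%. H2-T22 shared 31.2% of its windows with H2-T10, H2-Q5 shared 25.5% with H2-Q7, and H2-Q6 shared 13.9% with H2-Q7. A level of these genes is therefore a lower estimate, and reads with sequencing errors can still cross between such copies. H2-Q8, H2-Q9, H2-T9 and H2-L were not analysed here. The exons of H2-Q4 overlap Gm11131 on the opposite strand over 496 bases (19.1% of its exon bases), and those of H2-T22 overlap A930015D03Rik over 1003 bases (29.4%). Counting did not use strand, and reads falling on 2 genes were not assigned. Gm11131 had 8 to 27 reads in wt, 31 to 49 in Stat5a-/- and 85 to 116 in Stat5b-/- libraries, so it was ordered like H2-Q4, while A930015D03Rik had at most 1 read in any library.

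Levels were compared between genes as normalized CPM per kilobase of exon. In wt cells H2-Q7 was highest with 7.84 ± 1.47 (SD, n = 3), followed by H2-T23 (7.15 ± 0.404), H2-M3 (5.54 ± 0.730), H2-T22 (5.21 ± 0.154) and H2-Q6 (5.09 ± 0.925). H2-T24 (3.59 ± 0.328), H2-Q4 (3.11 ± 0.436) and H2-Q5 (1.46 ± 0.0544) were lower, and H2-Q2 and H2-Q1 were near or at 0. The ranges of H2-Q7 and H2-T23 overlapped, as did those of H2-M3, H2-T22 and H2-Q6 with each other and those of H2-T24 and H2-Q4. In Stat5a-/- cells H2-T23 came first with 16.0 ± 0.923, and H2-M3, H2-Q7, H2-Q4 and H2-T22 followed between 12.5 and 13.5, each overlapping with the next. In Stat5b-/- cells the order was led by H2-Q6 (68.7 ± 1.82), H2-Q7 (35.0 ± 3.88), H2-Q4 (24.1 ± 1.58) and H2-T23 (19.6 ± 1.52), whose ranges did not overlap with their neighbours. H2-M3, H2-T22 and H2-Q5 then stood together between 12.8 and 13.7, above H2-T24 (6.43 ± 0.824) and H2-Q2 (0.964 ± 0.261). On normalized CPM without division by length, H2-Q7 came first in all 3 lines and H2-Q6 was next to it in Stat5b-/- cells, where their ranges overlapped. Where each length was scaled to its share of unique windows, a scale chosen after the values were seen, H2-T22 moved to the first place in wt and Stat5a-/- cells, and H2-Q6 kept the first place in Stat5b-/- cells.

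**Figure D1:**
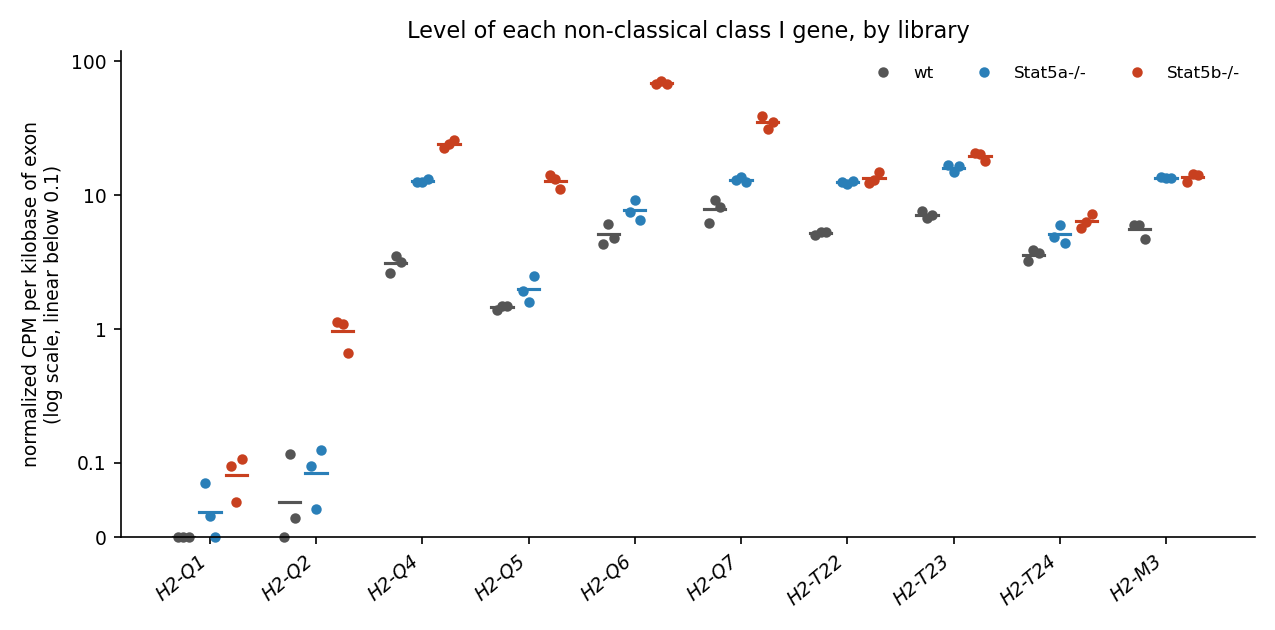
Normalized CPM per kilobase of exon (y axis, log scale that is linear below 0.1) of the 10 genes (x axis) in the 3 wt, 3 Stat5a-/- and 3 Stat5b-/- libraries; points are libraries and short lines are means. H2-Q6 lies near 5 in wt, near 8 in Stat5a-/- and near 69 in Stat5b-/- libraries, whereas H2-M3 and H2-T22 lie at the same height in both knockout lines.

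The H2-Q genes were highest in sum in Stat5b-/- cells, while the sum of the H2-T genes and H2-M3 differed less between the knockout lines, with every Stat5b-/- library above every Stat5a-/- library. Summed over the 6 H2-Q genes, the level was 54.6 ± 9.38 normalized CPM in wt, 109 ± 3.63 in Stat5a-/- and 378 ± 12.0 in Stat5b-/- cells, which is 1.99 and 6.93 times the wt level. Summed over H2-T22, H2-T23, H2-T24 and H2-M3, it was 54.2 ± 0.562, 119 ± 2.56 and 136 ± 3.21, or 2.20 and 2.51 times the wt level. H2-Q6 made up 9.71% ± 0.976 of the summed normalized CPM of all 10 genes in wt, 7.07% ± 1.17 in Stat5a-/- and 27.9% ± 1.26 in Stat5b-/- cells. H2-T23 made up 19.1% ± 2.73, 20.3% ± 1.25 and 11.02% ± 0.875, respectively.

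Of the 10 genes, 9 passed the filter on low counts, and H2-Q1 did not. A gene was called at an adjusted p under 0.05 and an absolute log2 fold change above 1, with edgeR's quasi-likelihood test and Benjamini-Hochberg adjustment over all 13852 genes tested. In Stat5b-/- against wt 8 of the 9 were called higher, where 10.6% of all genes tested were called higher and 8.44% lower. In Stat5a-/- against wt 4 were called higher, where 7.75% of all genes were called higher and 6.49% lower. In Stat5b-/- against Stat5a-/- 4 were called higher, beside 4.81% higher and 6.6% lower among all genes. No tested member was called lower in any of the 3 comparisons, and the lowest log2 fold changes were 0.83, 0.45 and 0.026. The medians over the 9 genes were 2.16, 0.74 and 0.92, beside medians of 0.023, 0.0099 and 0.020 over all genes tested. All 3 libraries of the first line lay above all 3 of the second for 9, 8 and 6 members, respectively, and for 27.4%, 25.5% and 22.3% of all genes tested. The comparisons share libraries, so they are not independent of each other. H2-Q2 passed the filter through its reads in Stat5b-/- libraries alone, and since the members were chosen with these values known nothing is read from the counts.

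The Qa-2 genes were described first. H2-Q6 had 9.07, 12.8 and 9.99 normalized CPM in the wt libraries, 15.7, 19.1 and 13.6 in Stat5a-/- and 141, 148 and 141 in Stat5b-/- libraries. The 3 lines did not overlap, and the Stat5b-/- libraries lay far above the rest. The log2 fold change was 3.75 (SE 0.15) in Stat5b-/- against wt, 0.60 (SE 0.15) in Stat5a-/- against wt and 3.15 (SE 0.15) in Stat5b-/- against Stat5a-/-. H2-Q7 had 26.6, 38.9 and 34.8 normalized CPM in wt, 55.8, 58.2 and 53.6 in Stat5a-/- and 166, 132 and 150 in Stat5b-/- libraries. Its lines did not overlap either, and the log2 fold changes were 2.16 (SE 0.14), 0.74 (SE 0.14) and 1.42 (SE 0.14). Within wt, H2-Q6 and H2-Q7 were both highest in replicate 2, where the T-cell marker sum was also highest (1213 normalized CPM against 893 and 1118 in replicates 1 and 3). H2-Q7 was likewise highest in the Stat5b-/- replicate 1, which had the highest T-cell marker sum of that line (2852 against 2015 and 2708). H2-Q6 was instead highest there in replicate 2, which had the lowest T-cell marker sum. In Stat5a-/- both genes were highest in replicate 2, as was the T-cell marker sum (1812 against 1736 and 1564). These are orders of 3 technical libraries in each line, and a part of T-cell reads in them was not tested. With the T-cell marker share as a covariate, the log2 fold change of H2-Q7 in Stat5b-/- against wt was 1.26 and that of H2-Q6 was 3.33. H2-Q4 (2.95 to 2.70), H2-T22 (1.36 to 1.24) and H2-T24 (0.83 to 0.38) also fell with the covariate. H2-Q2 (4.13 to 4.38), H2-Q5 (3.13 to 3.38), H2-T23 (1.46 to 1.72) and H2-M3 (1.31 to 1.55) rose with it.

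Among the other H2-Q genes, H2-Q5 was ordered like H2-Q6. It had 2.22, 2.37 and 2.37 normalized CPM in wt, 3.08, 2.52 and 3.97 in Stat5a-/- and 22.5, 21.1 and 17.6 in Stat5b-/- libraries, so that the Stat5b-/- line stood apart and the other lines lay close together. The log2 fold change was 3.13 (SE 0.18) in Stat5b-/- and 0.45 (SE 0.21) in Stat5a-/- against wt, and 2.68 (SE 0.18) between the knockout lines. H2-Q2 had 0, 5 and 1 reads in wt, 3, 1 and 3 in Stat5a-/- and 36, 35 and 19 in Stat5b-/- libraries. Only the Stat5b-/- line had more than 5 reads in a library, and wt and Stat5a-/- overlapped. Its log2 fold change of 4.13 (SE 0.53) in Stat5b-/- against wt was the highest of the members but rests on 6 wt reads in all, and it was 5.76 without wt replicate 2, which held 5 of them. In Stat5a-/- against wt it was 0.68 (SE 0.89), from 0.20 without wt replicate 1 to 2.32 without wt replicate 2, so it cannot be placed against the other genes. H2-Q1 had no read in wt, 3, 1 and 0 in Stat5a-/- and 4, 2 and 4 in Stat5b-/- libraries. Against a floor of 3 reads over the 3 wt libraries, the ratio was 4.16 in Stat5b-/- and 1.87 in Stat5a-/- cells. The floor covers the wt side only and the knockout reads are few, so these ratios are not lower limits.

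H2-Q4 stood higher in Stat5a-/- than in wt cells by a larger factor than H2-Q5, H2-Q6 and H2-Q7 did. It had 6.85, 9.09 and 8.26 normalized CPM in wt, 32.3, 32.8 and 34.5 in Stat5a-/- and 58.6, 62.5 and 66.8 in Stat5b-/- libraries. The lines did not overlap and stood in this order. The log2 fold change was 2.95 (SE 0.13) in Stat5b-/- and 2.03 (SE 0.12) in Stat5a-/- against wt. Between the knockout lines it was 0.92 (SE 0.11), which is just under the fold limit and is the nearest value outside it (1.34 less the chromosome 17 median), while H2-T23 in Stat5a-/- against wt, at 1.17, was the nearest inside it.

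Of the H2-T genes, H2-T23 (Qa-1) had 21.8, 19.5 and 20.6 normalized CPM in wt, 48.3, 43.3 and 47.3 in Stat5a-/- and 59.9, 58.4 and 51.6 in Stat5b-/- libraries. Both knockout lines lay above wt, and Stat5b-/- lay above Stat5a-/- by a small margin. The log2 fold changes were 1.46 (SE 0.11) in Stat5b-/- and 1.17 (SE 0.11) in Stat5a-/- against wt, and 0.29 (SE 0.10) between the knockout lines. H2-T22 had 17.2, 17.98 and 18.2 normalized CPM in wt, 43.1, 41.1 and 43.7 in Stat5a-/- and 42.2, 44.4 and 50.7 in Stat5b-/- libraries. The knockout lines overlapped and both lay above wt. Its log2 fold changes against wt were 1.36 (SE 0.11) and 1.26 (SE 0.11), and its value of 0.10 (SE 0.10) between the knockout lines was no larger than its SE. H2-T24, the weakest of the H2-T genes, had 7.04, 8.43 and 8.03 normalized CPM in wt, 10.6, 13.1 and 9.56 in Stat5a-/- and 12.3, 13.8 and 15.9 in Stat5b-/- libraries. It was higher in both knockout lines than in wt, but its log2 fold changes of 0.83 (SE 0.16) and 0.50 (SE 0.16) stayed under the limit, and the first was 0.38 with the T-cell marker share in the fit.

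H2-M3 had 8.57, 8.59 and 6.76 normalized CPM in wt, 19.7, 19.2 and 19.3 in Stat5a-/- and 18.03, 20.8 and 20.4 in Stat5b-/- libraries. The knockout lines overlapped and lay above every wt library. The log2 fold change was 1.31 (SE 0.13) in Stat5b-/- and 1.28 (SE 0.13) in Stat5a-/- against wt. Between the knockout lines it was 0.026 (SE 0.13), and the direction turned to -0.015 without Stat5b-/- replicate 2.

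**Figure D2:**
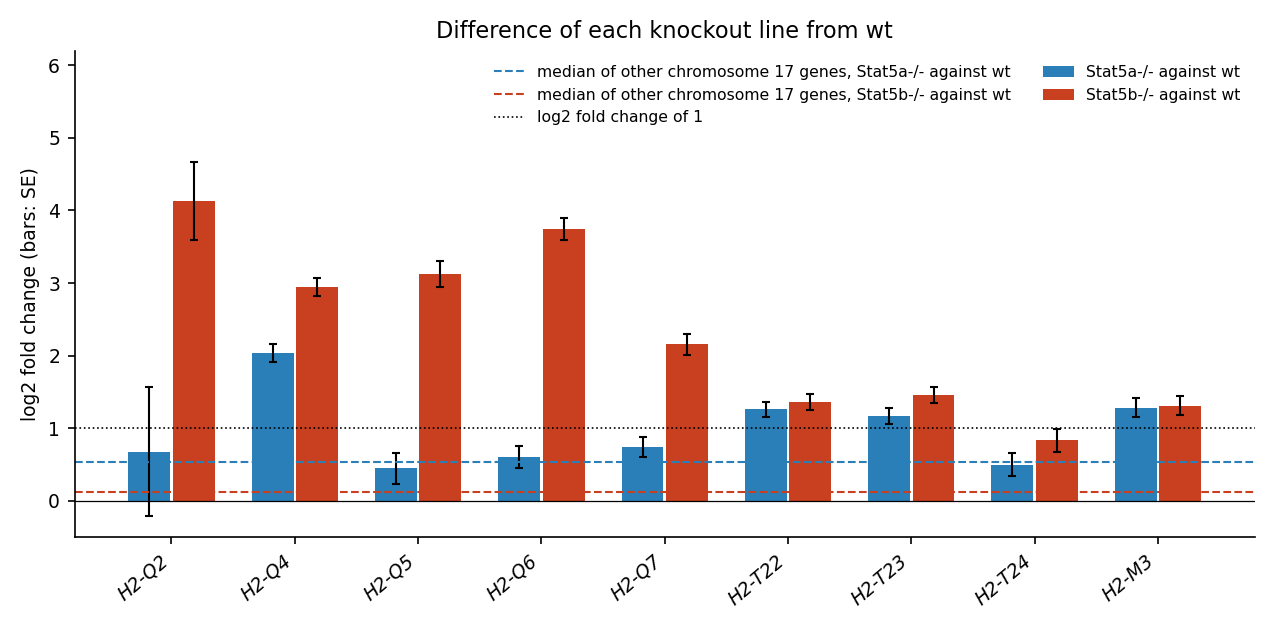
Log2 fold change against wt (y axis) of the 9 genes that passed the filter (x axis) in the Stat5a-/- and the Stat5b-/- line, with SE from the edgeR fit as error bars, the fold limit of 1 as a dotted line and the medians of the other tested chromosome 17 genes (0.53 and 0.13) as dashed lines. H2-Q5, H2-Q6 and H2-Q7 have a tall Stat5b-/- bar beside a short Stat5a-/- bar, the Stat5a-/- bar of H2-Q2 has a wide error (SE 0.89), and the bars of H2-T22, H2-T23 and H2-M3 are of like height.

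Chromosome 17 as a whole was higher in the Stat5a-/- line. The median log2 fold change of the 668 other tested genes on chromosome 17 was 0.53 in Stat5a-/- against wt, 0.13 in Stat5b-/- against wt and -0.43 in Stat5b-/- against Stat5a-/-. Among these genes 17.1% were called higher in Stat5a-/- and 12.0% in Stat5b-/- against wt. In Stat5a-/- against wt H2-Q5, H2-Q6, H2-Q7 and H2-T24 lay within 0.21 of the chromosome median, with differences from it of -0.084, 0.069, 0.21 and -0.031. H2-Q4, H2-M3, H2-T22 and H2-T23 lay above it by 1.504, 0.75, 0.73 and 0.64. With the median subtracted, 1 member (H2-Q4) stayed past the limit in Stat5a-/- against wt, and 8 in Stat5b-/- against wt. Between the knockout lines 5 members were then past it in place of 4, since H2-Q4 moved from 0.92 to 1.34. The part of a chromosome-wide difference in these values was not tested.

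Neighbouring genes whose symbol does not begin with H2 were read beside the members. Between the first and the last member, 32 tested genes were not named H2. Their median log2 fold change was 0.20 in Stat5b-/- and 0.60 in Stat5a-/- against wt, with 3 (9.4%) and 5 (15.6%) called higher. Among all genes tested 10.6% and 7.75% were called higher, and on chromosome 17 without the members 12.0% and 17.1%. Only Gm11131 (3.08), Gm9574 (2.17) and Gm19684 (1.53) had a log2 fold change above 1 in Stat5b-/- against wt. Gm11131 shares exon bases with H2-Q4, and Gm19684 and Gm9574 follow H2-T10 in gene order. The interval also holds other class I genes.

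**Figure D3:**
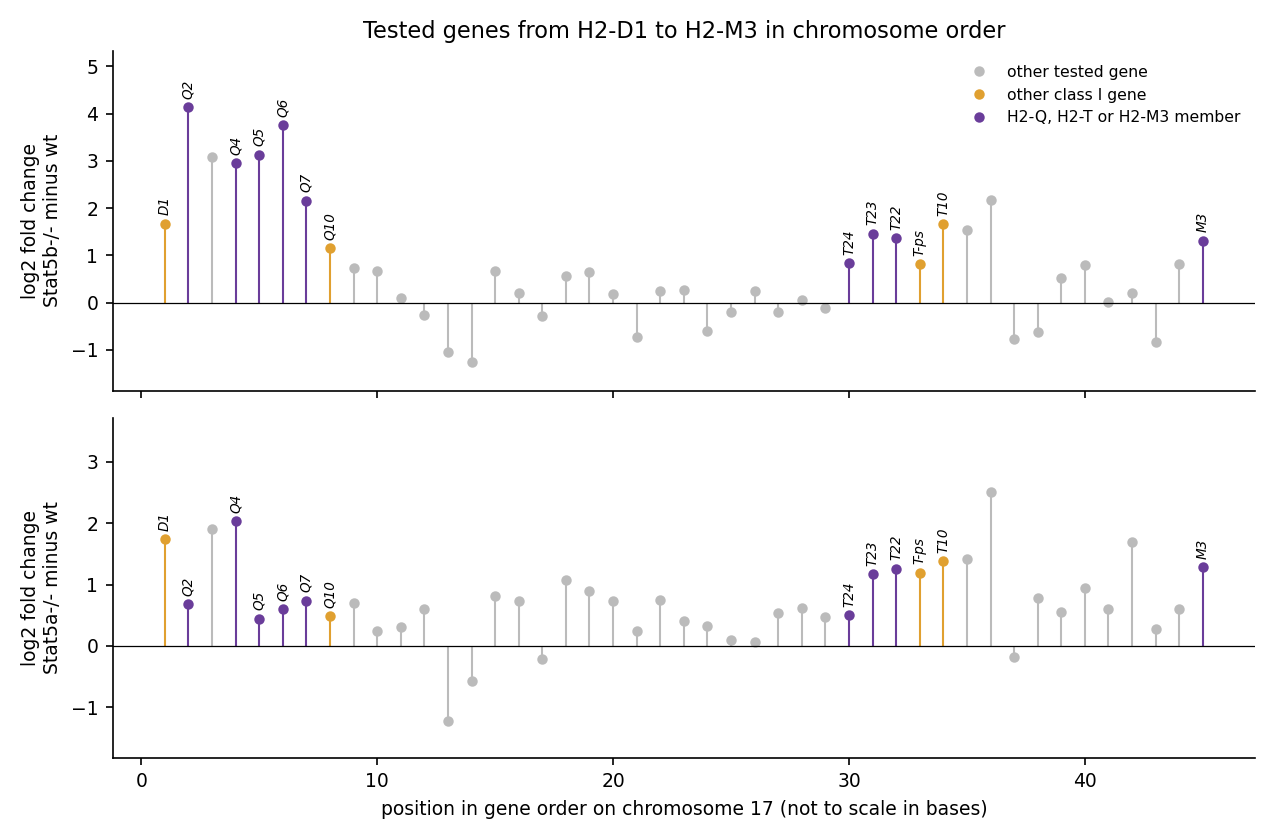
Log2 fold change (y axis) of each tested gene from H2-D1 to H2-M3 in its order on chromosome 17 (x axis, not to scale in bases), for Stat5b-/- minus wt (upper panel) and Stat5a-/- minus wt (lower panel), with the members, other class I genes and other genes in separate colours. In the upper panel H2-Q2 to H2-Q7 stand between 2.16 and 4.13, above the H2-T genes and H2-M3.

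Of the 18 other class I genes of the H2 region that were listed, 7 were tested. Adjusted p-values of listed genes, here and below, measure technical spread, as there was 1 line per genotype. The lists were chosen with earlier results of these data known. In Stat5b-/- against wt 5 were called higher and in Stat5a-/- 4, beside 10.6% and 7.75% of all genes tested, and none was called lower. DESeq2 called 4 in each, and the libraries of H2-Q10 and H2-M2, both among the 5, overlapped between Stat5b-/- and wt. The classical genes H2-K1 and H2-D1 were higher in both knockout lines, like H2-T23. H2-K1 had a log2 fold change of 1.61 (SE 0.091, edgeR adjusted p = 1.51e-08) in Stat5b-/- and 1.41 (SE 0.091, adjusted p = 6.03e-08) in Stat5a-/- against wt. H2-D1 had 1.67 (SE 0.15, adjusted p = 1.33e-06) and 1.74 (SE 0.15, adjusted p = 1.08e-06). H2-T10, which shares windows with H2-T22, had 1.66 (SE 0.14) and 1.38 (SE 0.14). Less the chromosome 17 median, H2-K1 had 0.88 and H2-T10 0.85 in Stat5a-/- against wt and H2-D1 had 1.21, and 1 of the 4 calls there was left, against 5 of 5 in Stat5b-/- against wt. By edgeR and by DESeq2 none of the 7 was called between the knockout lines, with 3 at an unadjusted p under 0.05, and there H2-K1 had 0.20 (SE 0.089, adjusted p = 0.1003) and H2-D1 -0.066 (SE 0.15, adjusted p = 0.758). H2-Q10, the liver-expressed H2-Q gene that shares 14.0% of the H2-Q7 windows, had 1.15 ± 0.723 normalized CPM in wt and 2.64 ± 1.11 in Stat5b-/- cells.

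The genes that load and supply class I peptides were read beside the members. Of 14 listed genes, all tested, 5 rose and none fell in Stat5b-/- against wt by the adjusted p and the fold limit, and 3 rose and none fell in Stat5a-/- against wt. Among all genes tested, 10.6% were called higher and 8.44% lower in Stat5b-/-, and 7.75% and 6.49% in Stat5a-/- against wt. By edgeR and by DESeq2 no gene of the list was called between the knockout lines, while 9 had an unadjusted p under 0.05 there, and 3 were higher and 2 lower by adjusted p alone. The list median was 0.72 in Stat5b-/- and 0.58 in Stat5a-/- against wt. B2m, the β2-microglobulin light chain, rose in Stat5b-/- from 1736 ± 260 to 3906 ± 493 normalized CPM (log2 fold change 1.17, SE 0.16, edgeR adjusted p = 4.65e-05), and had 0.79 (SE 0.15, adjusted p = 0.00134) in Stat5a-/-. Tap1, a subunit of the peptide transporter, rose in both lines, by 1.83 (SE 0.088, adjusted p = 3.59e-09) and 1.34 (SE 0.088, adjusted p = 6.77e-08). Psmb9, an immunoproteasome subunit, rose by 2.13 (SE 0.11) and 1.90 (SE 0.10), and Tapbp (tapasin) by 1.08 (SE 0.12) and 1.33 (SE 0.12). Tapbpl, a relative of tapasin, rose in Stat5b-/- by 1.51 (SE 0.12). The general chaperones Calr and Pdia3 had -0.32 (SE 0.10, adjusted p = 0.0194) and -0.35 (SE 0.10, adjusted p = 0.0118) in Stat5b-/-, short of the fold limit. Tap1, Psmb9 and Tapbp lie on chromosome 17 as well, and with its median subtracted 1 gene of the list was called in Stat5a-/- against wt. In Stat5b-/- against wt 4 were then called in place of 5, since Tapbp moved to 0.96.

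Of 7 transcription factors of class I genes, 3 rose and none fell in Stat5b-/- against wt, and 1 rose in Stat5a-/- against wt. Among all genes tested 10.6% and 7.75% were called higher in these comparisons. Nlrc5, the class I transactivator, had 34.3 ± 0.270 normalized CPM in wt, 72.5 ± 10.8 in Stat5a-/- and 157 ± 19.7 in Stat5b-/- cells. It rose by a log2 fold change of 2.19 (SE 0.13, edgeR adjusted p = 2.03e-08) and 1.08 (SE 0.13, adjusted p = 1.70e-05), and by 1.12 (SE 0.12, adjusted p = 1.67e-05) between the knockout lines. Irf1, an interferon-induced activator, rose in Stat5b-/- by 1.61 (SE 0.095, adjusted p = 2.20e-08) and had 0.99 (SE 0.096) in Stat5a-/-, just under the limit. Irf9, a factor of type I interferon signalling, rose by 1.38 (SE 0.11, adjusted p = 3.25e-07) in Stat5b-/- and had 0.24 (SE 0.11, adjusted p = 0.104) in Stat5a-/-. Rfx5, Rfxap, Rfxank and Irf2 stayed under the fold limit, between -0.15 and 0.56 in Stat5b-/- and between -0.26 and 0.17 in Stat5a-/- against wt. By edgeR adjusted p alone, Rfx5 (0.46, adjusted p = 0.00281) and Rfxank (0.56, adjusted p = 0.00677) were higher in Stat5b-/- against wt. Between the knockout lines 2 of the 7 were called, Nlrc5 and Irf9 (1.14, SE 0.11, edgeR adjusted p = 4.04e-06), and 5 were higher by adjusted p alone.

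Of 8 listed genes for receptors of non-classical class I molecules, 5 were tested and all 5 rose in Stat5b-/- against wt by edgeR and 3 by DESeq2. By edgeR 10.6% of all genes tested were called higher there. In Stat5a-/- against wt none was called by either tool, with 0 of 5 at an unadjusted p under 0.05. They were Klrc1, Klrd1, Cd8a and Trdc, which are genes of T and NK cells, and Pirb, a gene of B and myeloid cells. Klrc1 and Klrd1 are also on the list of NK-cell markers. The T-cell markers, which include Cd8a, moved with them, and 15 of the 17 were called higher in Stat5b-/- and 2 in Stat5a-/- against wt. Klrd1 (CD94) had 15.6 ± 5.31 normalized CPM in wt, 16.7 ± 2.19 in Stat5a-/- and 32.2 ± 10.4 in Stat5b-/- cells, and Klrc1, which encodes NKG2A, had at most 1.81 ± 0.693. Cd8a, whose product binds class I molecules, had 143 ± 28.4, 182 ± 23.8 and 319 ± 82.7. The part of T-cell reads in the members' differences was not tested beyond the fit with their share as a covariate, in which 8 members were still called in Stat5b-/- against wt and 4 in Stat5a-/- against wt. Between the knockout lines H2-Q7 then had a log2 fold change of 0.91 and was no longer called. The T-cell marker share and the genotype overlap in these libraries, so this fit does not separate them fully. With the covariate, the members' fold changes in Stat5b-/- against wt moved in both directions.

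**Figure D4:**
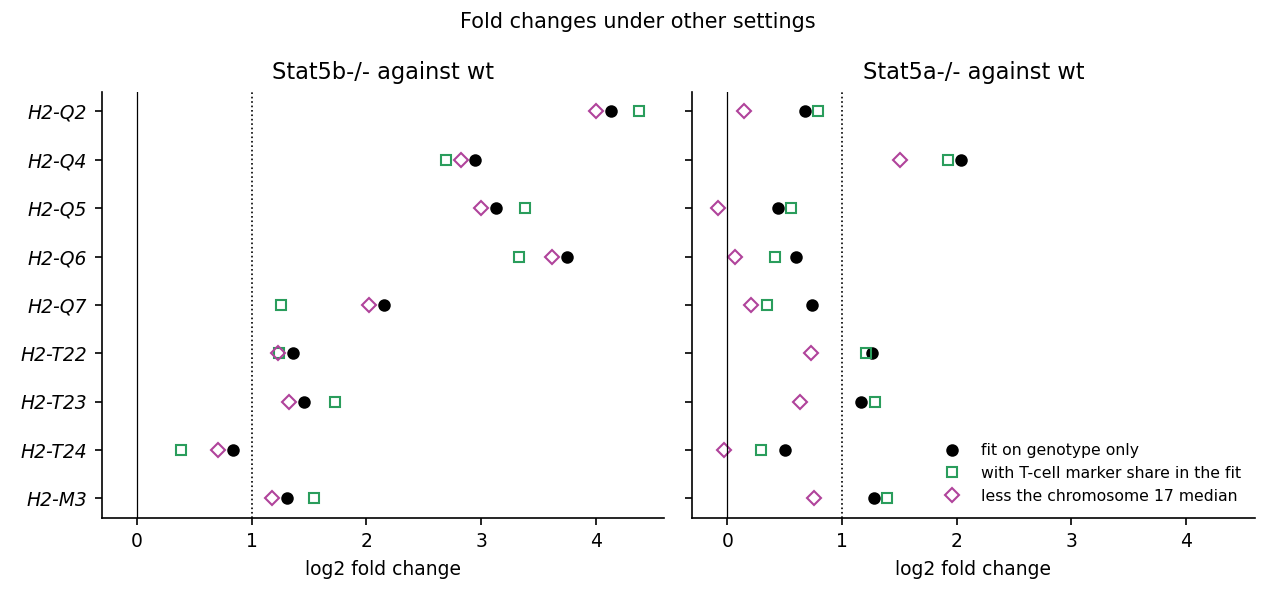
Log2 fold change (x axis) of the 9 tested members (y axis) in Stat5b-/- against wt (left) and Stat5a-/- against wt (right), from the fit on genotype alone, the fit with the T-cell marker share and the values less the chromosome 17 median. With the T-cell share in the left panel, H2-Q7 moves from 2.16 to 1.26 and H2-T23 from 1.46 to 1.72. H2-Q5 and H2-T24 move to about 0 with the median subtracted in the right panel.

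Genes whose pattern over the libraries was most like that of the members were named by the correlation of log2 normalized CPM over the 9 libraries, among 1322 genes that had a mean of at least 10 normalized CPM and group means at least 1 log2 unit apart. The values are a description, since the 9 libraries fall into 3 lines and share their depth and composition. Most like the summed H2-Q genes were Ifi27 (r = 0.997), Ifi30 (0.997), Tuba8 (0.996), Parp14 (0.995) and Crybg1 (0.994). Ifi30, which encodes the thiol reductase GILT, had 10.8 ± 1.04 normalized CPM in wt, 33.1 ± 2.28 in Stat5a-/- and 183 ± 7.17 in Stat5b-/- cells. Most like the summed H2-T and H2-M3 genes were Gm42047 (0.998), Plch1 (0.998), H2-K1 (0.997), Gng12 (0.997) and Lrrfip1 (0.996). H2-K1 had 276 ± 7.14 normalized CPM in wt, 733 ± 40.7 in Stat5a-/- and 842 ± 13.1 in Stat5b-/- cells, so the classical gene was ordered like these members. The likeness is one of shape and not of size, since Gm42047 had 0.823 ± 0.163, 90.2 ± 6.19 and 174 ± 16.9, Plch1 0.152 ± 0.0374, 26.4 ± 0.842 and 37.4 ± 5.02, and Gng12 1.07 ± 0.312, 62.1 ± 4.88 and 99.1 ± 8.51.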

How the data were processed

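RNA-seq libraries were made from polyA RNA of the 3 cell lines with a SENSE mRNA-Seq kit and sequenced as 50 bp single-end reads. The authors mapped the reads with STAR to the mouse genome GRCm38 and deposited raw read counts per gene of GENCODE M13, made with featureCounts 1.5.1. Per the file headers, neither strand, multi-mapped reads nor reads on several genes were counted. Symbols came from GENCODE M21, which named 50376 of the 50686 genes. The T-cell, B-lineage and pathway lists and the 10 members were chosen with earlier results of these data known.

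Library sizes were scaled by TMM, and differences were tested by edgeR 4.0.16 under R 4.3.3 (filterByExpr, glmQLFit and glmQLFTest on all 9 libraries, genotype as the only factor, 13852 genes tested, Benjamini-Hochberg adjustment). Standard errors (SE) are the size of the log2 fold change divided by the root of the F statistic. Normalized CPM are counts divided by the effective library size, and levels between genes were divided by the deposited exon length. With 3 technical replicates of 1 line, p-values and SD measure technical spread, and a floor of 3 counts covers counting error only. Named were all members, genes of the fixed lists, genes overlapping a member, and neighbours above the fold limit in Stat5b-/- against wt. Also named were the 5 genes most correlated with each summed group of members (log2 of normalized CPM plus 0.5). One gene of the transcription factor list was left out of its counts and is not reported here; other listed genes without printed values are covered by the counts. The steps were tested on simulated counts.

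Alternatives were DESeq2 1.42.0, RLE size factors, no filter on low counts, a minimum mean count of 10, fits of only the 2 genotypes in question, the replicate number as a block, adjusted p alone, the chromosome 17 median subtracted, the T-cell marker share as a covariate, each library left out in turn, and levels without division by length. The scale by unique windows was chosen after seeing the data. Apart from the RefSeq promoter windows and the GENCODE M21 transcripts, no genome sequence was used, and no protein sequence was used.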

Additional observations from a re-analysis of the deposited data

How the results depend on the processing

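The number of members called stayed within 1.5 times the reported count (8, 4 and 4) under DESeq2, RLE size factors, either filter, only the 2 genotypes in the fit, the replicate block, the T-cell share and each library left out. Under DESeq2 and without a filter H2-Q1 was among the genes called in Stat5b-/- against wt, which gave 9. By adjusted p alone, 7 members were called in Stat5a-/- against wt, and 12, 9 and 5 peptide supply genes in the 3 comparisons. The share of all genes called by adjusted p alone was not computed, so counts by that limit have no background beside them. With the chromosome 17 median subtracted, 1 member and 1 peptide supply gene were called in Stat5a-/- against wt. Of 458 recomputed fold changes of the members, 450 kept their direction and their call, which needs both limits. Among them, H2-Q2 in Stat5a-/- against wt was not called but passed the fold limit without wt replicate 2 (2.32) or Stat5a-/- replicate 2 (1.005). H2-Q5 (-0.084) and H2-T24 (-0.031) in Stat5a-/- against wt turned with that median subtracted, and H2-M3 between the knockout lines turned to -0.015 without Stat5b-/- replicate 2 (range -0.015 to 0.083 over the libraries left out). The cause was not tested.

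Deviations from the line means had a mean correlation of -0.11 in the 9 pairs of equal replicate number and of 0.055 in the 18 other pairs, and the best match had the same number in 3 of 18 cases. The numbers therefore do not pair the libraries, and with the replicate block 8, 4 and 4 members were called. Depth limits H2-Q1 and H2-Q2, and reads shared between gene copies limit H2-T22, H2-Q4, H2-Q5 and H2-Q6.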
